A study of Mus musculus with 6 samples.

Results

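Interferon-stimulated genes are the genes that cells switch on when interferons, the secreted proteins of antiviral defence, bind their receptors. The set described here holds 51 genes, listed by symbol under a rule that uses no measured value, though the list was drawn up with earlier results of these data known. All 51 were among the 53599 gene symbols of the count table, and each had a count in at least 1 library. After a filter on low counts 49 of them were among the 12691 genes tested, and Oas1g and Oas2 were not.

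The genes were measured by RNA-seq in mouse hepatocytes at day 4 after the animals had been given adeno-associated virus serotype 8 (AAV8), a vector that takes a gene into liver cells. The Sox4 group received AAV8-TBG-HA-Sox4-P2A-Cre, which carries HA-tagged mouse Sox4 joined to Cre recombinase by a P2A peptide. The control group, called empty vector (EV), received AAV8-TBG-Cre, so that both groups carried AAV8 and Cre, and TBG is a promoter active in hepatocytes. Hepatocytes were released by 2-step liberase digestion and enriched on Percoll, and there were 3 libraries in each group. The labels give the genotype as WT for EV and as Sox4 for the Sox4 group. The recipients were male Rosa26-LSL-Cas9-EGFP mice on a C57BL/6J background, injected at 4 to 8 weeks of age, and in them Cre also switches on Cas9 and EGFP. For other mice, the study's methods define the empty vector as a construct that also holds a guide RNA (sgRNA) backbone. No group without a vector was analysed here, and the vector dose of the EV group is not given in the sources used here.

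Interferon signalling runs in a loop. Sensors of foreign nucleic acid lead to the release of interferons, which act through paired receptor chains on STAT and IRF transcription factors. Type I interferon assembles a complex that holds STAT2 and IRF9 on the interferon-stimulated response element (ISRE), whereas interferon gamma acts mainly through the gamma-activated site (GAS). The induced genes include the sensors and IRFs themselves, antiviral effectors and brakes on the pathway. In the liver, hepatocytes carry the receptors and mount this response during viral hepatitis.

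Sequencing depth was even, with total counts of 15090629 to 16964860 per library. Levels are given as CPM, counts scaled to 1e06 on library sizes that were adjusted with the trimmed mean of M-values method (TMM). The floor used here, 3 counts, corresponds to 0.218 to 0.231 CPM in EV, compared with 0.150 to 0.153 CPM in Sox4. Sox4, the delivered gene, was at or under that floor in every EV library and rose at least 3631-fold with its vector (edgeR adjusted p = 2.61e-07). The hepatocyte label was checked on 12 markers, whose summed level was 131804 to 154276 CPM in EV, compared with 90886 to 104320 CPM in Sox4. Of these markers 9 were lower in Sox4 and none was higher. Across all tested genes 55.1% passed an adjusted p of 0.05, 29.0% as higher and 26.0% as lower in Sox4 (edgeR quasi-likelihood test, Benjamini-Hochberg adjustment).

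With TMM scaling most of the tested interferon-stimulated genes were lower in the Sox4 libraries, and with library size alone 19 of the 49 were. Of the 49 tested, 30 were lower (61.2%, against 26.0% of all tested genes), 7 were higher (14.3%, against 29.0%) and 12 did not pass the test. With libraries scaled by total count alone the split was 19 lower and 10 higher, against 12.8% lower and 51% higher of all genes. A difference of at least 2-fold was present in 20 of the lower and 3 of the higher genes, where 11.9% of all tested genes were lower and 16.5% were higher by that much. The 30 lower genes differed by between -0.47 and -2.95 on the log2 scale, with a median of -1.24. The 7 higher genes were Ifit2, Usp18, Ifngr1, Iigp1, Trim25, Ifnar1 and Ifngr2, with log2 fold changes between 0.39 and 2.85. In bulk samples, less RNA per cell and fewer cells that express a gene cannot be told apart.

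**Figure D1:**
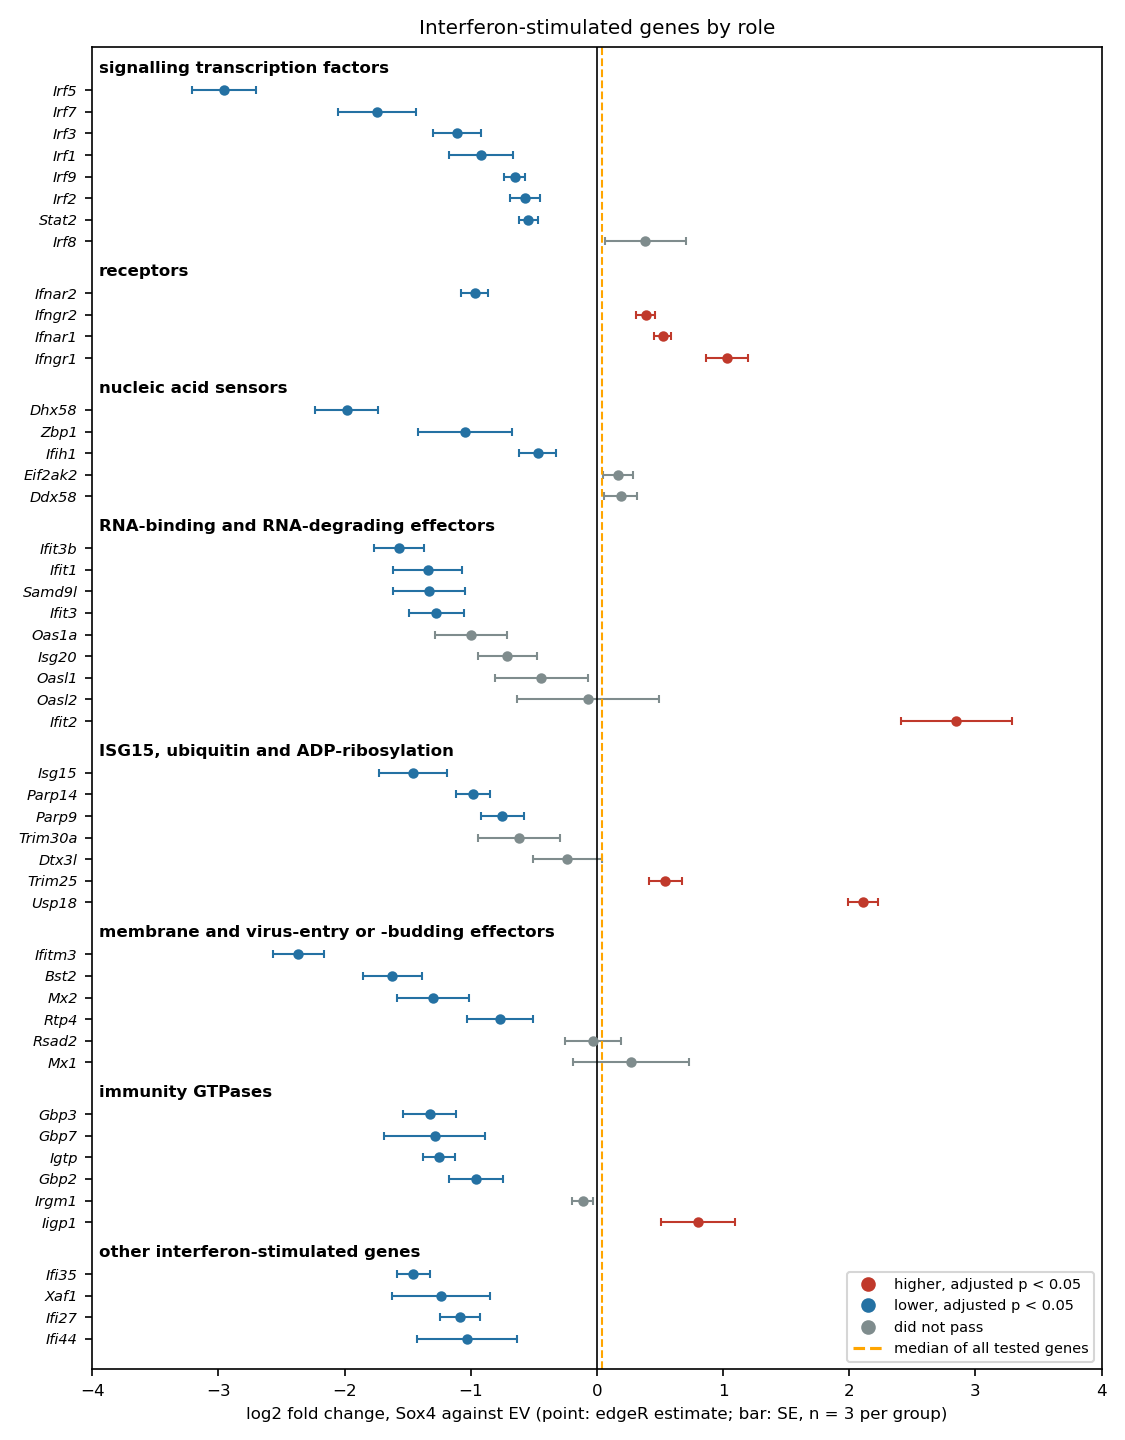
Log2 fold change (Sox4 minus EV) of the 49 tested interferon-stimulated genes, arranged by role, with points for the estimate, bars for ± SE (3 libraries per group), blue for lower, red for higher and grey for not passed, and a dashed line at the median of all tested genes. Most points lie to the lower side on this TMM scale, and Ifit2 and Usp18 lie farthest to the higher side.

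With TMM scaling the groups were well separated for most of these genes. For 32 genes every EV library lay above every Sox4 library (29.9% of all tested genes), for 7 every Sox4 library lay above every EV library (33.1%), and for 10 the groups overlapped. Over all tested genes the groups did not overlap in 63.0%. The median log2 fold change was -0.92 with quartiles of -1.29 and -0.07, and that of all tested genes was 0.04. Per library, the median level of the tested genes was 4.21, 4.10 and 4.34 log2 CPM in EV 1 to 3 and 3.22, 3.499 and 3.71 in Sox4 1 to 3. All 3 EV medians were thus above the highest Sox4 median on this scale. The TMM factors, 0.840 to 0.861 in EV and 1.18 in Sox4, by themselves raise EV levels against Sox4 levels. The separation was not computed with library size alone. EV 3 held the highest value of its group in 30 of the 49 genes. Without EV 3 there were 25 lower genes, and the median log2 fold change was -0.71.

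**Figure D2:**
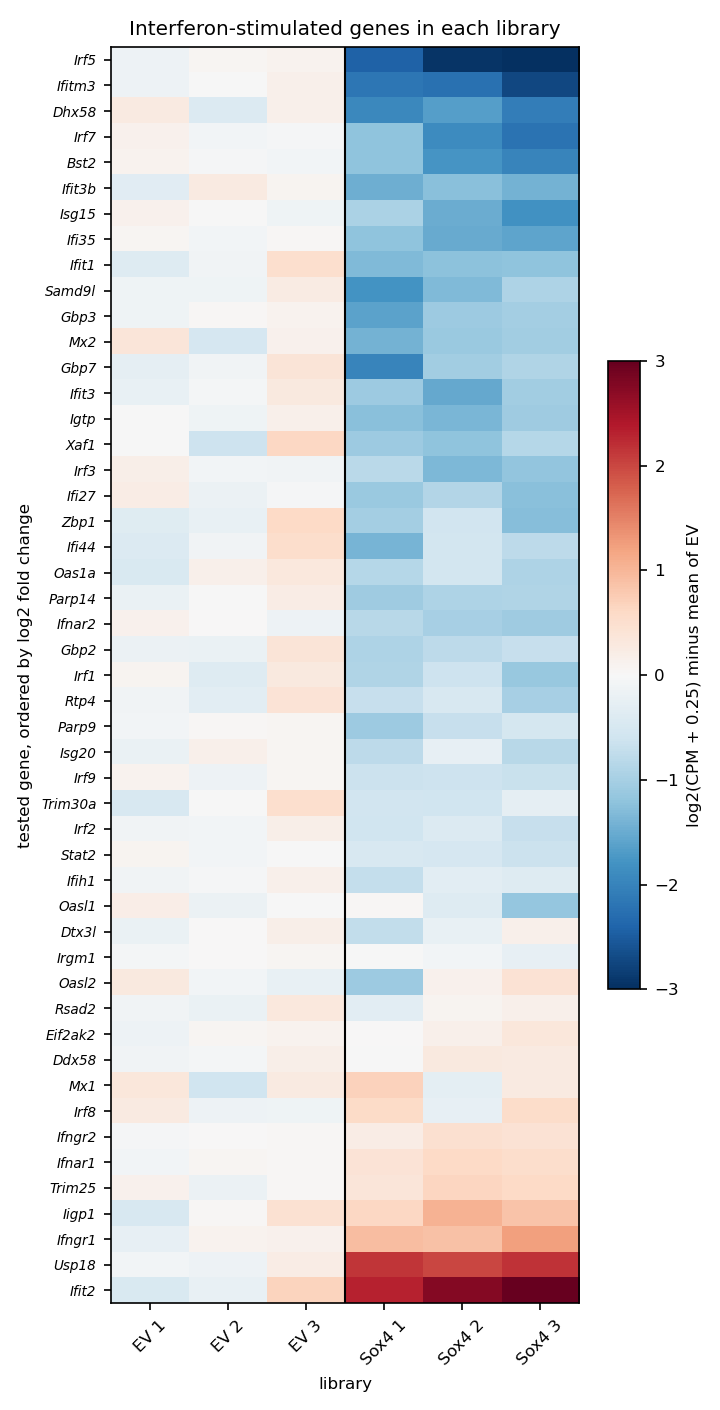
Heat map of the 49 tested genes (rows, ordered by log2 fold change) in the 6 libraries (columns), coloured by log2(CPM + 0.25) minus the EV mean, with colours limited at ± 3. The 3 Sox4 columns are uniformly low for genes such as Irf5 and Ifitm3 and uniformly high for Ifit2 and Usp18.

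The summed level of the set gave a different picture from the count of genes. With TMM scaling the 51 genes together made 1888, 1986 and 2302 CPM in EV 1 to 3 and 1643, 1908 and 1765 CPM in Sox4 1 to 3. These ranges overlapped. Before any scaling their summed counts were 24503, 26150 and 31705 in EV and 32786, 37346 and 34831 in Sox4. Total counts were 15090629 to 16249382 in EV and 16679195 to 16964860 in Sox4, so how the sums compare depends on scaling. A single gene, Iigp1, held 15.5 to 24.3% of the sum in EV and 38.5 to 44.2% in Sox4. Without Iigp1 the sums were 1565 to 1744 CPM in EV, compared with 1010 to 1065 CPM in Sox4 and no longer overlapped. Ifitm3 moved the opposite way, from 17.1 to 18.0% of the sum in EV to 3.06 to 4.87% in Sox4.

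Promoter sequences show the elements through which many of these genes are known to be read. RefSeq promoters on GRCm38.p6, from 250 bases before to 50 after the start, were given for 40 of the 51 genes. Letters of the ISRE core, GAAA followed by any 2 bases and a further GAAA, on either strand, were found in 20 of the 40 (50%) and in 3.99% of all 27025 genes with a promoter. The following 30-base windows are shown because they hold that core beside genes whose values follow. They are written in the direction of the gene, with a match of the core in capitals. Read from the opposite strand the core is TTTC, any 2 bases and TTTC.
Isg15 (chr4:156200871-156200900, minus strand): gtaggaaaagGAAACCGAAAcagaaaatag
Ifit1 (chr19:34640794-34640823, plus strand): ccagtctcagTTTCAGTTTCtcactgctga
Ifit3 (chr19:34583397-34583426, plus strand): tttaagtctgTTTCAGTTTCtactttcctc
Ifit3b (chr19:34607793-34607822, plus strand): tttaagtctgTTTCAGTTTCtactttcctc
Bst2 (chr8:71537577-71537606, minus strand): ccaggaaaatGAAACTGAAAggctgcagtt
Igtp (chr11:58199512-58199541, plus strand): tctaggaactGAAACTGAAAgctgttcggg
Gbp3 (chr3:142559989-142560018, plus strand): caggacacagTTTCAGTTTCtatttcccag
Irgm1 (chr11:48871425-48871454, minus strand): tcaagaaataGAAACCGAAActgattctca
Rsad2 (chr12:26456553-26456582, minus strand): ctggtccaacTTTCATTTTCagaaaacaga

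The match in capitals began 72 bases before the start of Isg15, 85 before that of Ifit1, 124 before that of Bst2, 34 before that of Igtp and 24 before that of Irgm1. Further matches lie before the starts of Isg15, Ifit1, Ifit3, Ifit3b, Bst2, Gbp3 and Irgm1, and some overlap the match in capitals. Ifit3 and its near copy Ifit3b held the same 30 bases, 122 and 154 bases before their starts. The first 7 windows belong to genes that were lower in Sox4, and the last 2 to genes that did not pass the test. By outcome, the ISRE core was present in 13 of the 23 lower genes with a promoter sequence, in 6 of 11 that did not pass and in 0 of 5 higher genes (Ifnar1, Ifngr1, Ifngr2, Ifit2 and Trim25). By role it was in 3 of 3 sensors, 5 of 5 GTPases, 3 of 3 membrane effectors, 5 of 10 RNA effectors, 2 of 4 genes for ISG15, ubiquitin and ADP-ribosylation, 2 of 8 transcription factors, 0 of 4 receptors and 0 of 3 other genes of the set. No promoter sequence was given for Usp18 and Iigp1, which were also higher. Of the 5 higher genes, Ifnar1, Ifngr1 and Ifngr2 are receptors, so outcome and role cannot be told apart here. The GAS core, TTCNNNGAA, was in 14 of the 40 genes (35.0%) against 9.55% of all genes. The letters ACAAAG, the core bound by SOX factors, were in 5 of the 40 (12.5%) against 21.02% of all genes. A match is a description of letters, and no match says only that the letters are not in this window.

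Of the 8 transcription factors of the pathway 7 were lower and none was higher, with a median log2 fold change of -0.79. With library size alone 3 were lower. For this and each later role, the shares to compare are those of all tested genes. These were 26.0% lower and 29.0% higher with TMM, and 12.8% lower and 51% higher with library size alone. Irf5, a factor of Toll-like receptor signalling, had 14.7, 17.01 and 17.8 CPM in EV 1 to 3 and 2.86, 1.94 and 1.57 CPM in Sox4 1 to 3. It fell from 16.5 ± 1.598 to 2.12 ± 0.662 CPM (SD, n = 3), a log2 fold change of -2.95 ± 0.25 (SE, edgeR adjusted p = 7.87e-06), and this was the largest fall of the 49 genes. Part of Irf5, 7.51% of its 100-base stretches, is shared with Tnpo3 on the opposite strand, and the strand setting of the counting is not given in the sources used here.

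Irf7, the master inducer of type I interferon genes, had 34.3, 29.5 and 30.8 CPM in EV and 13.4, 8.33 and 6.54 CPM in Sox4. The groups were far apart, at 31.5 ± 2.46 and 9.42 ± 3.55 CPM (SD, n = 3), with a log2 fold change of -1.74 ± 0.31 (SE, edgeR adjusted p = 0.000242). Irf3, which is activated directly by sensors, had 58.4, 48.8 and 47.4 CPM in EV and 29.3, 19.97 and 22.4 CPM in Sox4. The log2 fold change was -1.11 ± 0.19 (SE, edgeR adjusted p = 0.000276). Stat2, a part of the ISRE complex and the factor with the most reads before any adjustment for length, had 76.8, 68.6 and 71.2 CPM in EV and 52.0, 50.8 and 45.8 CPM in Sox4. Its log2 fold change was -0.54 ± 0.07 (SE, edgeR adjusted p = 0.00184), and -0.07 with library size alone, where the call was lost.

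Irf9, the DNA-binding part of that complex, was similarly lower by a small margin, at 30.4 ± 2.95 CPM in EV and 19.4 ± 0.332 CPM in Sox4 (SD, n = 3). Irf1 and Irf2, an activator and a repressor that share binding sites, had log2 fold changes of -0.92 and -0.57. With library size alone the values of Irf9, Irf1 and Irf2 were -0.18, -0.45 and -0.10, and none of them passed. Irf8, a factor of myeloid cells, was the factor that did not pass, at 1.38 ± 0.272 CPM in EV and 1.80 ± 0.588 CPM in Sox4 (SD, n = 3, edgeR adjusted p = 0.419).

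The receptor chains divided. Of the 4, 3 were higher and 1 was lower, and the same held with library size alone, where 51% of all tested genes were higher. Ifnar1, the chain of the type I receptor that anchors the kinase TYK2, had 40.9, 44.7 and 44.3 CPM in EV and 58.0, 66.1 and 62.2 CPM in Sox4. It rose by 0.52 ± 0.07 on the log2 scale (SE, edgeR adjusted p = 0.00224). Ifnar2, its high-affinity partner chain, had 45.4, 42.1 and 37.6 CPM in EV and 23.4, 20.8 and 19.8 CPM in Sox4. It fell by 0.97 (SE 0.11, edgeR adjusted p = 0.000144). The chains of 1 receptor thus moved in opposite directions, with no overlap for either. Their ratio within a library does not depend on scaling, and Ifnar1 counts were 0.902, 1.06 and 1.18 times those of Ifnar2 in EV and 2.48, 3.18 and 3.15 times in Sox4.

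Both chains of the interferon gamma receptor were higher. Ifngr1, the ligand-binding chain, had 9.86, 12.5 and 12.9 CPM in EV and 22.4, 21.7 and 27.9 CPM in Sox4, with a log2 fold change of 1.03 ± 0.17 (SE, edgeR adjusted p = 0.00053). Ifngr2, the signalling chain, rose by 0.39 ± 0.08 on the log2 scale (SE, edgeR adjusted p = 0.024), from 19.8 ± 0.385 to 25.9 ± 2.32 CPM (SD, n = 3). The call for Ifngr2 was lost without EV 1, EV 2, EV 3, Sox4 2 or Sox4 3, with values of 0.36, 0.37, 0.38, 0.34 and 0.36.

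The sensors of nucleic acid did not move as a block. Of the 5, 3 were lower and 2 did not pass, while with library size alone 1 was lower and 2 were higher. Dhx58, which encodes the RNA sensor LGP2, had 16.1, 9.95 and 15.03 CPM in EV and 3.31, 4.09 and 2.99 CPM in Sox4. The log2 fold change was -1.98 ± 0.25 (SE, edgeR adjusted p = 8.25e-05), with the highest Sox4 library well below the lowest EV library. Zbp1, a sensor of Z-form nucleic acid that triggers necroptosis, had 5.86, 6.45 and 11.7 CPM in EV and 3.61, 5.01 and 2.99 CPM in Sox4. Its log2 fold change was -1.05 ± 0.37 (SE, edgeR adjusted p = 0.0172), and the call was lost without EV 3 (-0.69), without Sox4 3 (-0.89) and with library size alone (-0.58).

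Ifih1, which encodes the long-RNA sensor MDA5, was 57.5, 61.0 and 69.0 CPM in EV and 37.7, 49.7 and 47.9 CPM in Sox4, a log2 fold change of -0.47 ± 0.15 (SE, edgeR adjusted p = 0.0134). With library size alone its value was -0.00058 and did not pass. Ddx58, the RIG-I gene and the third member of this sensor family, had 48.6, 50.95 and 59.2 CPM in EV and 52.5, 64.8 and 63.5 CPM in Sox4. Those ranges overlapped, and the log2 fold change of 0.19 ± 0.13 did not pass (SE, edgeR adjusted p = 0.234). Eif2ak2, the RNA-activated kinase PKR, was at 0.17 (edgeR adjusted p = 0.318). With library size alone Ddx58 and Eif2ak2 were at 0.66 and 0.64 and passed as higher (edgeR adjusted p = 0.00131 and 0.00232). On that scale 51% of all tested genes passed as higher.

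**Figure D3:**
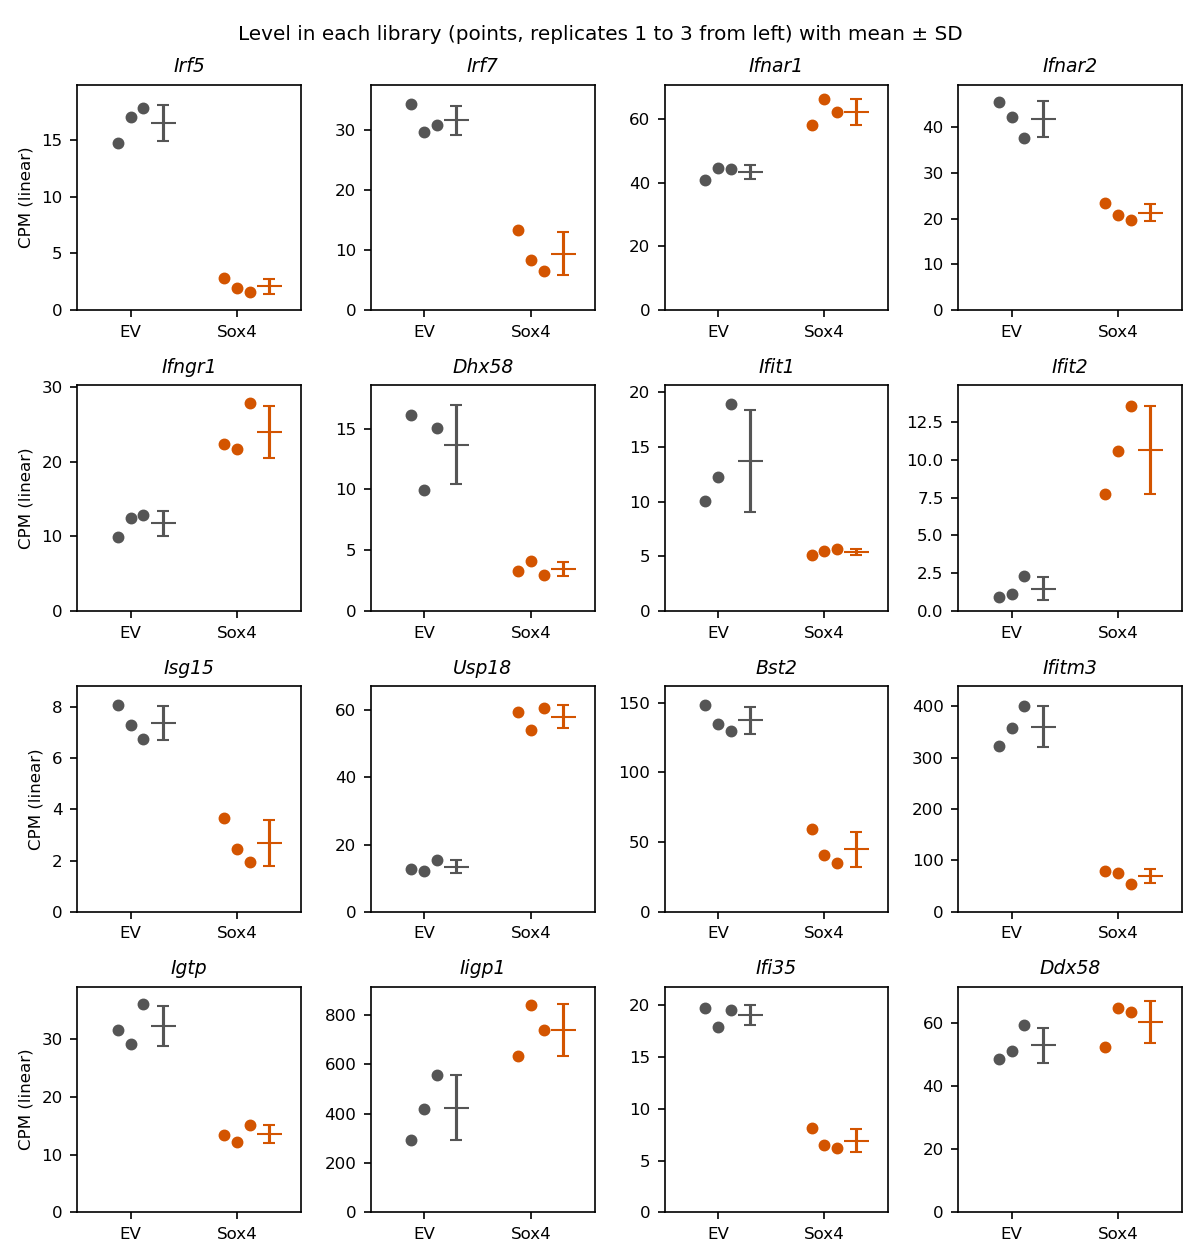
Levels of 16 interferon-stimulated genes in each library (CPM on TMM-scaled library sizes, linear axes from 0), with a point per library and the mean ± SD of the 3 libraries of EV and of Sox4. Ifit2, Usp18, Ifnar1 and Ifngr1 are higher in every Sox4 library, Ddx58 overlaps between the groups, and genes such as Irf5, Ifitm3 and Bst2 are lower in every Sox4 library.

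The Ifit genes, whose proteins hold foreign RNA and block its translation, did not move together. Of the 9 tested genes of the RNA-binding and RNA-degrading effectors 4 were lower (Ifit1, Ifit3, Ifit3b and Samd9l) and 1 was higher (Ifit2), also with library size alone. Ifit2 had 12, 15 and 32 counts in EV and 155, 207 and 268 counts in Sox4, or 0.925, 1.14 and 2.32 CPM against 7.77, 10.6 and 13.6 CPM. Every Sox4 library was far above the highest EV library, and the log2 fold change was 2.85 ± 0.44 (SE, edgeR adjusted p = 0.000132). Ifit1 went the other way, with 10.02, 12.2 and 19.0 CPM in EV and 5.11, 5.52 and 5.63 CPM in Sox4. It fell by 1.34 (SE 0.27, edgeR adjusted p = 0.00103).

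Since Ifit1 and Ifit2 lie in the same gene cluster and are usually induced together, their ratio was taken within each library. Ifit2 counts were 0.0923, 0.0932 and 0.123 times those of Ifit1 in EV and 1.52, 1.92 and 2.41 times in Sox4, so that the order of their counts was turned. Ifit3b had 2.62, 4.10 and 3.56 CPM in EV and 1.053, 1.28 and 1.11 CPM in Sox4, a log2 fold change of -1.57 ± 0.20 (SE, edgeR adjusted p = 0.00231). Ifit3 was at -1.27 (SE 0.22). Of the 100-base stretches of Ifit3, 31.7% also occur in Ifit3b, and 27.4% of those of Ifit3b occur in Ifit3, so the division of reads between them is uncertain.

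Samd9l, an inhibitor of translation, fell from 25.4 ± 3.85 to 10.1 ± 3.08 CPM (SD, n = 3). The oligoadenylate synthetase family, which answers double-stranded RNA, gave no called gene in the set. Oasl1, a related repressor of Irf7 translation and the one of these effectors with the most reads, had 29.9, 22.9 and 25.7 CPM in EV and 26.5, 19.9 and 11.4 CPM in Sox4. Its ranges overlapped (log2 fold change -0.44, edgeR adjusted p = 0.199), it passed without Sox4 1 (-0.74, adjusted p = 0.0276) and with no filter on low counts (-0.40, adjusted p = 0.0413), and it was at 0.029 with library size alone. Oas1a had 13, 22 and 26 counts in EV and 14, 18 and 13 in Sox4, did not pass (-0.996, edgeR adjusted p = 0.0603), and passed without EV 1 (-1.24, adjusted p = 0.0423). It shares 40.9% of its stretches with Oas1g, which had 3, 0 and 3 counts in EV and 13, 4 and 10 in Sox4. Oas2 had 0, 10 and 2 counts in EV and 3, 9 and 2 in Sox4. Oasl2 (-0.07) and Isg20 (-0.71), an exonuclease, did not pass either (edgeR adjusted p = 0.917 and 0.124).

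ISG15 and its removing enzyme moved apart. Isg15 is a ubiquitin-like protein that is attached to other proteins, and Usp18 is the protease that takes it off and a brake that binds the type I receptor. Isg15 had 8.09, 7.29 and 6.75 CPM in EV and 3.66, 2.45 and 1.93 CPM in Sox4. It fell by 1.46 (SE 0.27, edgeR adjusted p = 0.00136). Usp18 had 12.7, 12.1 and 15.5 CPM in EV and 59.5, 54.1 and 60.6 CPM in Sox4. It rose from 13.4 ± 1.84 to 58.1 ± 3.48 CPM (SD, n = 3), 4.32-fold, with a log2 fold change of 2.11 ± 0.12 and the lowest adjusted p of the 49 genes (SE, edgeR adjusted p = 2.14e-06). Within a library, Usp18 counts were 1.57, 1.66 and 2.30 times those of Isg15 in EV and 16.3, 22.1 and 31.4 times in Sox4.

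Of the 7 genes for ISG15, ubiquitin and ADP-ribosylation, 2 were higher and 3 were lower, and with library size alone 2 were higher and 2 lower. Trim25, the ubiquitin ligase that activates RIG-I, had 102, 82.2 and 95.5 CPM in EV and 120, 147 and 141 CPM in Sox4. It rose by 0.54 ± 0.13 on the log2 scale (SE, edgeR adjusted p = 0.00521). Parp14, a mono-ADP-ribosyltransferase, had 33.2, 38.3 and 44.8 CPM in EV and 18.3, 20.2 and 20.5 CPM in Sox4, and fell by 0.98 (SE 0.13, edgeR adjusted p = 0.000243). Parp9 was lower at -0.75 (-0.28 with library size alone, where it did not pass), whereas its partner ligase Dtx3l was at -0.23 (edgeR adjusted p = 0.359) and at 0.24 with library size alone. Parp9 and Dtx3l overlap on opposite strands. Trim30a did not pass (-0.62, edgeR adjusted p = 0.200).

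The membrane effectors lost the most summed CPM of the 8 roles. Of the 6, 4 were lower, 3 of them also with library size alone, and their summed level was 499 to 566 CPM in EV, compared with 110 to 157 CPM in Sox4. Ifitm3, which sits in endosomal membranes and blocks virus fusion, had 322, 358 and 401 CPM in EV and 80.0, 75.8 and 54.0 CPM in Sox4. The fall was 5.15-fold, from 361 ± 39.7 to 69.9 ± 14.0 CPM (SD, n = 3), with a log2 fold change of -2.37 ± 0.20 (SE, edgeR adjusted p = 5.37e-06). Bst2, or tetherin, which holds budding virus at the cell surface, had 149, 134 and 130 CPM in EV and 59.0, 40.4 and 34.8 CPM in Sox4. It fell by 1.62 (SE 0.23, edgeR adjusted p = 7.99e-05). Every Sox4 library was far below the lowest EV library.

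Mx2, a dynamin-like antiviral GTPase, had 8.86, 4.78 and 7.55 CPM in EV and 2.41, 3.01 and 3.19 CPM in Sox4, and fell by 1.30 (SE 0.29, edgeR adjusted p = 0.00301). Rtp4 was lower at -0.77 (edgeR adjusted p = 0.0237), and its call was lost without EV 3 (-0.55), without Sox4 3 (-0.63) and with library size alone (-0.30). Mx1 was at 0.975 ± 0.386 CPM in EV against 1.18 ± 0.470 CPM in Sox4. Rsad2, which encodes viperin, was at 11.7 ± 2.34 and 11.5 ± 2.01 CPM (SD, n = 3). Neither passed (edgeR adjusted p = 0.653 and 0.908).

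The immunity GTPases act on the vacuoles of intracellular microbes and comprise the guanylate-binding proteins (Gbp) and the immunity-related GTPases (Igtp, Irgm1 and Iigp1). Of the 6, 4 were lower and 1 was higher, and with library size alone 3 were lower and 2 higher. Iigp1 had the highest mean CPM of the set in both groups, before any adjustment for length, with 293, 420 and 558 CPM in EV and 633, 843 and 741 CPM in Sox4. It rose by 0.80 ± 0.29 (SE, edgeR adjusted p = 0.0132), with a wide spread in EV. Irgm1, a regulator of the other GTPases, did not pass at -0.11 (edgeR adjusted p = 0.403). With library size alone Irgm1 was at 0.36 and passed as higher (edgeR adjusted p = 0.0154), as 51% of all tested genes did.

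Igtp went the opposite way from Iigp1, with 31.6, 29.1 and 35.9 CPM in EV and 13.3, 12.2 and 15.2 CPM in Sox4. It fell by 1.25 (SE 0.13, edgeR adjusted p = 6.75e-05). Gbp3 had 4.01, 4.56 and 4.79 CPM in EV and 1.30, 1.94 and 2.08 CPM in Sox4 (-1.32, edgeR adjusted p = 0.00302). Gbp7 had 14.0, 15.8 and 22.5 CPM in EV and 4.16, 8.22 and 9.07 CPM in Sox4 (-1.29, edgeR adjusted p = 0.00524). For both, all EV libraries were above all Sox4 libraries. Gbp2 passed narrowly at -0.96 (edgeR adjusted p = 0.0395), and its call was lost when any 1 library was left out, with values from -1.08 to -0.73, and with library size alone at -0.49.

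The other 4 genes of the set were all lower, and 2 of them were also with library size alone. Ifi35, a partner of the factor NMI, had 19.7, 17.9 and 19.5 CPM in EV and 8.17, 6.49 and 6.18 CPM in Sox4, and fell by 1.46 (SE 0.13, edgeR adjusted p = 5.41e-05). Ifi27, a mitochondrial protein widely used as a marker of the interferon response, had 66.7, 50.9 and 55.6 CPM in EV and 26.4, 31.2 and 24.1 CPM in Sox4. Its fold was 2.12 (edgeR adjusted p = 0.000163), and the groups did not overlap. Xaf1, a proapoptotic protein, had 4.24, 2.66 and 6.68 CPM in EV and 1.85, 1.69 and 2.23 CPM in Sox4 (-1.23 ± 0.39, SE, edgeR adjusted p = 0.0146). Its call was lost without EV 3 (-0.86), without Sox4 2 (-1.14) and with library size alone (-0.77). Ifi44 passed narrowly at -1.03 (edgeR adjusted p = 0.0441), and was lost without EV 2 (-1.13), EV 3 (-0.71), Sox4 1 (-0.80) or Sox4 3 (-1.08) and with library size alone (-0.56).

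Levels can be compared between genes only per length, and are given for this as CPM per kilobase of exon in GENCODE M21. On that scale Ifitm3 was first in EV at 532 ± 58.6 and Bst2 second at 152 ± 10.8, followed by Iigp1 at 72.8 ± 22.8 and Ifi27 at 39.4 ± 5.55 (SD, n = 3). In Sox4 the first was Iigp1 at 127 ± 18.0, with Ifitm3 at 103 ± 20.6, a pair whose spreads overlap, then Bst2 at 49.5 ± 14.1. Trim25, at 23.6 ± 2.43, and Usp18, at 20.8 ± 1.25, came next in Sox4, ahead of Ifi27 at 18.6 ± 2.46, and these neighbours lie within 1 SD or little more of each other. Usp18 had been at 4.82 ± 0.661 in EV. Ifit2 changed from 0.372 ± 0.192 to 2.71 ± 0.740, which put it above Ifit1 at 2.04 ± 0.102 and Ifit3 at 2.38 ± 0.438 in Sox4, by less than its own SD.

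The rest of the pathway was read from a list of ligands, signalling genes and upstream sensing genes. Of 21 interferon genes in the count table, 19 had no count in any library. Ifnk, a type I interferon of the skin, had 3, 1 and 5 counts in EV and 0, 0 and 3 in Sox4, and Ifnz had 1 count, in Sox4 1. No ligand was tested, and at this depth a count of 0 allows up to 0.231 CPM in EV and 0.153 CPM in Sox4, for counting error only. Of the 20 signalling genes tested 6 were higher and 4 lower, and of the 17 upstream sensing genes 2 were higher and 6 lower. Over the 37 genes this made 8 higher (21.6%) and 10 lower (27.0%), close to the shares of all tested genes (29.0% and 26.0%). With library size alone 21 were higher and 6 lower, where 51% and 12.8% of all tested genes were.

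Named by size, the pathway genes that rose most were Ifnlr1, Socs3 and Dhx9. Ifnlr1, the specific chain of the interferon lambda receptor, had 1, 2 and 0 counts in EV and 35, 58 and 22 in Sox4. That was at least 8.62-fold higher than the floor of 3 counts per EV library (edgeR adjusted p = 0.000655). Socs3, a feedback inhibitor of JAK kinases, rose from 5.42 ± 2.30 to 31.8 ± 9.20 CPM, and Dhx9, an RNA helicase, from 88.1 ± 12.1 to 212 ± 20.7 CPM (SD, n = 3, edgeR adjusted p = 0.000194 and 5.36e-05). Mavs, the mitochondrial adaptor through which RIG-I and MDA5 signal, was the gene that fell most. It had 111, 96.4 and 104 CPM in EV and 29.9, 27.7 and 30.5 CPM in Sox4, a log2 fold change of -1.82 ± 0.07 (SE, edgeR adjusted p = 1.64e-06). Ikbke, a kinase that activates Irf3 and Irf7, was at -1.18.

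Interferon-stimulated genes outside the set were counted from a further list. The table held 84 of its genes and 54 of them were tested, of which 20 were lower (37.0%), 8 were higher (14.8%) and 26 did not pass, with a median log2 fold change of -0.24, where 26.0% of all tested genes were lower and 29.0% higher. With library size alone 15 were lower and 18 higher, where 12.8% of all tested genes were lower and 51% higher. The largest falls were in Apol9b (-2.89), Gbp10 (-2.78), Trim14 (-2.16), Apol9a (-2.11) and Ddx60 (-2.04), and rises among the largest were in Gbp9 (3.37), Tor3a (2.13), Sp100 (1.41) and Cnp (1.10). Apol9b, with a homologue in Apol9a, had 111, 86.2 and 83.0 CPM in EV and 16.7, 11.7 and 9.27 CPM in Sox4. Gbp9 had 0.925, 2.66 and 4.36 CPM in EV and 29.0, 33.3 and 20.3 CPM in Sox4, so that within the Gbp family Gbp9 rose while Gbp3, Gbp7 and Gbp10 fell, in each case also with library size alone. The call for Sp100, which rests on 3 to 24 counts per library, was lost without EV 1 (1.18), EV 2 (1.46), EV 3 (1.59), Sox4 2 (1.36) or Sox4 3 (1.20).

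Markers of other liver cells are given beside these genes. The shares to compare are again 29.0% higher and 26.0% lower of all tested genes with TMM. Marker lists were not counted with library size alone, where 51% of all tested genes were higher. Of 14 Kupffer cell and macrophage markers tested of 15, 7 were higher and none was lower, and their summed level was 16.0 to 36.3 CPM in EV, compared with 39.0 to 85.4 CPM in Sox4. The defining markers Clec4f and Adgre1 did not pass (0.86 and 0.92, edgeR adjusted p = 0.113 and 0.181), and Adgre1 had 8, 21 and 14 counts in EV and 15, 47 and 59 in Sox4. Of 6 stellate cell markers tested 4 were higher, with sums of 11.02 to 50.7 CPM in EV, compared with 98.4 to 151 CPM in Sox4. Most of that sum in every Sox4 library was 1 gene, Reln, which had 7.09, 22.6 and 37.5 CPM in EV and 126, 117 and 50.8 CPM in Sox4. Of 4 cholangiocyte markers tested 2 were higher, Epcam and Spp1. The summed level of the cholangiocyte markers was 27.5 to 43.7 CPM in EV, compared with 72.6 to 85.2 CPM in Sox4. The study reports EPCAM protein on hepatocyte-derived cells after Sox4 delivery, at a later day, so these markers need not mean cholangiocytes. Sinusoidal endothelial markers gave 3 higher (27.3%) and 1 lower (9.09%) of 11, no larger a share higher than that of all tested genes. No marker of lymphocytes and NK cells (13 genes) or neutrophils (7 genes) passed the filter. Of 6 markers of plasmacytoid dendritic cells, known for releasing type I interferon, only Tcf4 was tested, and it rose from 10.8 ± 0.581 to 24.6 ± 1.24 CPM (SD, n = 3, edgeR adjusted p = 5.34e-05). Siglech, the defining marker, had 0, 5 and 1 counts in EV and 6, 10 and 2 in Sox4. Of 6 erythroid markers only Alas2 was tested, and it fell from 108 ± 16.7 to 9.91 ± 5.35 CPM (SD, n = 3, edgeR adjusted p = 0.000687). The globin genes went the other way at low counts. Hbb-bs had 3, 0 and 5 counts in EV and 13, 22 and 9 in Sox4. Hba-a1 had 2, 2 and 2 counts in EV and 4, 11 and 8 in Sox4, so the erythroid markers gave no single direction. Reln, Tcf4, Alas2, Hbb-bs, Hba-a1, Epcam and Spp1 were named after their values were seen. The part of these cells in the levels of the interferon-stimulated genes was not tested.

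**Figure D4:**
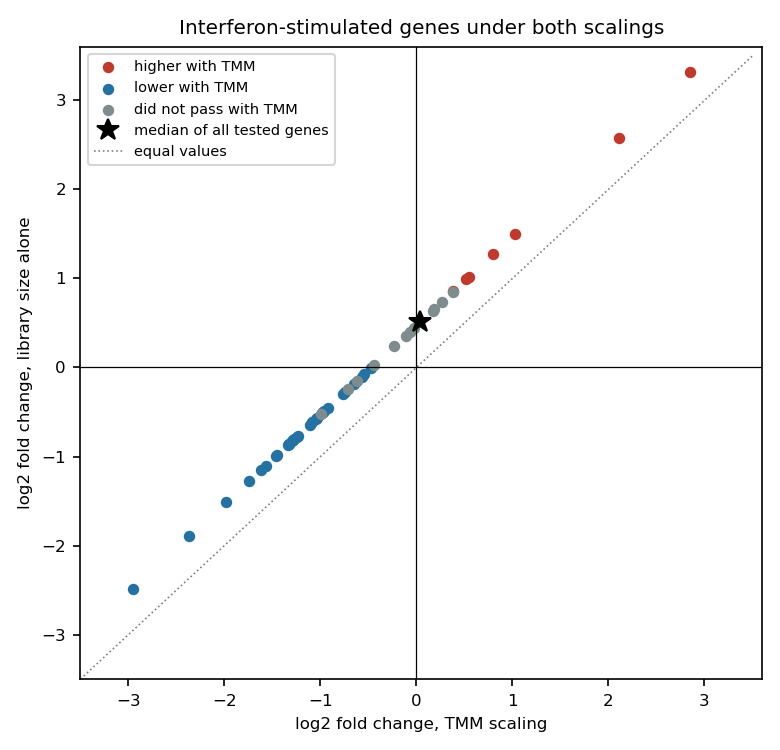
Log2 fold change of each tested interferon-stimulated gene with TMM scaling (horizontal) and with library size alone (vertical), with a star at the median of all tested genes (0.04 and 0.51). All genes shift upward by a like amount, so the distance of the set's median from the median of all genes necessarily stays at -0.96.

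Scaling set how many of the genes were called. The set had a median log2 fold change of -0.92 under TMM, or -0.45 with library size alone. In both cases this was 0.96 below the median of all tested genes. A change of scaling shifts all genes by a like amount, so this equal distance was fixed in advance and adds no evidence. TMM factors were 0.840 to 0.861 in EV and 1.18 in each Sox4 library. Of the 30 lower genes, 19 kept their call under every alternative that tested them: Irf3, Irf5, Irf7, Ifnar2, Dhx58, Ifit1, Ifit3, Ifit3b, Samd9l, Isg15, Parp14, Mx2, Bst2, Ifitm3, Gbp3, Gbp7, Igtp, Ifi27 and Ifi35. Ifit3b and Gbp3 fell below the alternative filter, a mean count of at least 50, and were not tested there. Of the 7 higher genes 6 kept their call under every alternative, all but Ifngr2.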

How the data were processed

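RNA-seq libraries of hepatocytes from 3 EV and 3 Sox4 mice were grouped by the sample labels, and the labels name no batch. Per the labels and the study's methods, the authors aligned reads to GRCm39 with STAR (2.7.10b in the submitters' processing notes) and counted them per gene with featureCounts 2.0.1. The deposited values used here are raw counts per gene, and a deposited normalized table was not used. The annotation release, strand setting and treatment of multi-mapping reads are not given in the sources used here. Of the 51 genes, 12 share over 5% of their 100-base stretches with another gene and 12 overlap a gene on the opposite strand, on GENCODE M21 (GRCm38). A further kind of overlap, with exons of a gene on the same strand, was present in 6: Irf9, Ifnar2, Parp14, Rtp4, Gbp7 and Igtp. Its part in their counts was not tested.

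Counts were analysed in R 4.3.3. Genes were filtered with filterByExpr (minimum count 10, minimum total count 15) and scaled by TMM, and the groups were compared by the quasi-likelihood F test of edgeR 4.0.16 with robust dispersion. Benjamini-Hochberg adjustment ran over all 12691 genes, with a threshold of 0.05. Every adjusted p in the text comes from edgeR unless another tool is named. SEs of log2 fold changes were taken from log2 CPM (prior count 2), as the SE of one group mean minus the other. The scripts were tested on simulated data. PCR reads without molecular identifiers are not independent molecules, so floors cover counting error alone.

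Alternatives were DESeq2 size factors, library size alone, no filter, a mean count of at least 50, the Wald test of DESeq2 1.42.0, voom of limma 3.58.1, a replicate block and leaving out each library. No 2 libraries of a group were alike within counting noise. The labels do not say that replicates are separate animals, although the study's methods do, and otherwise p-values measure technical spread. Same-numbered libraries did not deviate together throughout (correlations 0.273, -0.0898 and 0.131), and the main test used no pairing. These correlations cannot exclude a pairing by number. With the replicate block 3862 of all tested genes were higher and 3500 lower, against 3684 and 3306 in the main test.

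The 51 genes, their 8 roles and the further lists were chosen with earlier results of these data known. Named with full values in each role were the up to 3 called genes with the largest change and the most abundant gene. Of the pathway list the largest changes were named, at most 4 per direction, and of the further list the 5 largest per direction, apart from an item that is not reported here. Promoters came from RefSeq on GRCm38.p6, another build than that of the counts, and were given for 40 genes. Those of Mx2, Parp14, Parp9, Dhx58, Rtp4, Zbp1, Usp18, Mx1, Oas2, Iigp1 and Ifi27 were not used here. Tmem173, Mb21d1 and Lgp2 of the lists are older symbols of listed genes, and Mnda and Tf were not found under those symbols.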

Additional observations from a re-analysis of the deposited data

How the results depend on the processing

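The counts, the median and the single genes were recomputed under 13 alternatives. Of 626 values for single genes of the set, 574 gave the same call, 35 lost it, 5 gained one and 12 changed sign. Library size alone moved most results: 19 genes of the set were lower in place of 30 and the median was -0.45 in place of -0.92, the pathway list gave 21 higher and 6 lower in place of 8 and 10, and the further list gave 18 higher in place of 8. Signs changed there for Dtx3l (0.24), Irgm1 (0.36), Oasl1 (0.029), Oasl2 (0.39) and Rsad2 (0.44), as follows from a shift of all genes. With no filter the median was -0.73 and Rsad2 was at 0.011. When each library was left out Rsad2 ranged from -0.14 to 0.13 (above 0 without EV 3 or Sox4 1), Mx1 from -0.056 to 0.53 (below 0 without EV 2 or Sox4 1) and Oasl2 from -0.46 to 0.32 (above 0 without EV 1 or Sox4 1). Under the same omissions the set gave 6 to 7 higher and 25 to 30 lower genes with a median from -0.96 to -0.71, the pathway list 6 to 9 higher and 8 to 11 lower, and the further list 6 to 11 higher and 17 to 19 lower. With the replicate block the set gave 7 higher and 29 lower genes with a median of -0.91, and Gbp2 was lost (-0.94, edgeR adjusted p = 0.0548), as it was with the DESeq2 Wald test (-0.96) and with no filter (-0.92). Of the genes named outside the set, Tor3a was lost under the replicate block (2.02), and Sp100 with no filter (1.46), the Wald test (1.44) and voom (1.31). The cause of these changes was not tested where none is given. No protein sequences were compared. Depth limits Oas1g, Oas2 and the interferon ligands, which are at or near the floor.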
